A study of Mus musculus with 4 samples.

Results

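Naive CD8 T cells of the mouse liver were taken from 4 single-cell RNA-seq libraries by their UMI counts (unique molecular identifiers, each standing for 1 captured transcript). A barcode was a member when it had at least 500 UMIs, at least 300 genes and at most 10% of UMIs from mitochondrial genes, at least 1 UMI of Cd3e, Cd3d or Trac, at least 1 UMI of Cd8a or Cd8b1, and 0 UMIs of Cd4, Cd79a, Ly6c2, Ccl5, Gzmk and Pdcd1. There were 564 members among 26825 barcodes that passed the limits on UMIs, genes and mitochondrial share, and among 33198 deposited barcodes. P-LC24 held 160 of them, P-HC24 192, I-LC32 146 and I-HC32 only 66. Because the gate used measured values, the genes in it and the contrasts it set up are described here without a test.

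The mice were male C57BL/6J wild type, 7 weeks old when the diet began, and all of them ate the FPC diet, which is rich in fructose, palmitate, cholesterol and trans fat and gives steatohepatitis. In the Progression phase the diet held 0.05% cholesterol (P-LC24) or 1.25% cholesterol (P-HC24) until week 24. In the Intervention phase both arms then ate the 0.05% diet for 8 weeks and were sampled again at week 32, as I-LC32 for the arm that had always been at 0.05% and I-HC32 for the arm that had come down from 1.25%. Fine needle aspirates of 4 liver lobes from each of 3 mice, 12 in all, were pooled into 1 library per condition, the same 3 mice of an arm were biopsied at both times, and the non-parenchymal cells were loaded after collagenase digestion, red cell lysis and removal of dead cells. With 1 library per condition no difference between conditions could be tested, mice within a library cannot be told apart, and all intervals given are exact 95% intervals that cover counting error only.

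Naive CD8 T cells have left the thymus with a rearranged T cell receptor and have not yet met their antigen. They recirculate through blood and lymphoid organs with the help of homing receptors such as Ccr7, live on interleukin 7 and on weak contacts of the receptor with self peptide on MHC class I, and are kept quiescent by the transcription factors Lef1, Tcf7, Bach2, Foxp1 and Klf2. After antigen or strong homeostatic cytokine signals they turn on Cd44, the interleukin 2 and 15 receptor chain Il2rb, Eomes, Tbx21, the chemokine receptor Cxcr3 and cytotoxic genes. Ly6c2 and Ccl5 mark most memory CD8 T cells, and Gzmk and Pdcd1 mark the activated and exhausted cells that gather in the inflamed liver.

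At the median a member had 8533.5 UMIs at week 24 on low and 7704 on high cholesterol, and 7611 and 7554.5 at week 32 in the same arms. Their summed UMIs were 1382782, 1567613, 1146882 and 551846, so I-HC32 gives the widest intervals. Between 17 and 41 barcodes were shared by a pair of libraries, 0 of them were members in both, and 3 members had a barcode that another library also held. In 25 members (5, 5, 13 and 2 by library) there were at least 20 UMIs of the marker list of another cell type (B, NK, myeloid, erythroid, hepatocyte, or innate-like and gamma delta T cells), and 61 members (8, 17, 18 and 18) had a single Cd8 UMI. Shares of cells and the diet ratios and lists that they change are given again for the 484 members left without both (148, 172, 117 and 47), called the strict set, which was chosen after the data were seen. The panels of genes per cell and the comparisons with other T cells are for all members.

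Most of the myeloid and erythroid RNA among the members sat in those few cells. The 11 myeloid genes summed to 896, 1305, 2264 and 4487 CPM (UMIs scaled to the same total in every library) by library, and 1, 1, 3 and 2 members took 79.7%, 80.4%, 93.0% and 93.1% of these UMIs. Without the 25 members the same list stood at 183, 262, 176 and 341 CPM. The erythroid list went from 13681, 13412, 24920 and 140 CPM to 640, 253, 613 and 148, and the B cell list from 190, 227, 1478 and 317 to 190, 229, 194 and 319. The NK cell list fell to at most 19.9 CPM in any library, its defining genes Ncr1 and Klrb1c were at 0 in every member, and the list of innate-like and gamma delta T cells stood at 10.6 to 52.4 CPM. The list of regulatory T cells was at 213 to 399 CPM with Foxp3 seen in at most 0.685% of members, and hepatocyte transcripts came to 83.2 CPM in P-LC24, from 1 of the 25 cells, against at most 1.91 CPM elsewhere. The endothelial and stellate list summed to 184 to 260 CPM, close to the 189 to 300 CPM of the B cells. Of its 8 genes 7, 6, 6 and 7 were at 0 in the members by library, so the sum rests on very few genes. Cdh5, Clec4g, Kdr, Dcn and Col1a1 were at 0 in every library.

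Free RNA was read from B cells (Cd79a and Cd79b present, Cd3e, Cd3d and Trac at 0), which numbered 17031. Lyz2, the lysozyme of macrophages and neutrophils, had a UMI in 6.25%, 46.4%, 7.53% and 71.2% of the members and in 8.25%, 49.5%, 11.4% and 72.2% of the B cells. The haemoglobin gene Hbb-bs was found in 91.9%, 67.7%, 89.7% and 40.9% of members against 91.3%, 66.8%, 91.7% and 45.3% of B cells. Both genes therefore sat in members and in B cells at like shares within each library, while the shares themselves differed widely between libraries.

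The label was checked against its markers Cd8a, Cd8b1, Lef1, Dapl1 and Tcf7. Cd8a, which the gate used together with Cd8b1, had a UMI in 73.8%, 67.7%, 60.3% and 45.5% of members, and Cd8b1 in 98.1%, 96.4%, 99.3% and 98.5%. Lef1 (chromosome 3, 130903919 to 131018005, plus strand, GRCm39 as for the other positions given), which the gate did not use, was detected in 98.1%, 97.4%, 96.6% and 98.5% of members and in 3.76%, 2.31%, 2.13% and 1.48% of B cells. Tcf7 (chromosome 11, 52143107 to 52174619, minus strand) was detected in 92.5%, 83.3%, 77.4% and 80.3% against at most 1.71% of B cells, and Dapl1 (chromosome 2, 59314997 to 59335368, plus strand) in 51.2%, 51%, 50.7% and 48.5% against at most 0.249%. The 3 markers outside the gate stood far above the share in B cells, whose median depth of 5914 to 8808.5 UMIs was in the same range as that of the members. None of these 3 goes against the name, although Dapl1 was seen in only about every other member. The comparison with B cells does not separate naive from memory T cells. In CD8 T cells with both Ly6c2 and Ccl5, Lef1 was found in 82.5% to 95.1% and Dapl1 in 19.4% to 34.4%.

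Receptors of lymph node entry and of survival were also present. Ccr7, the receptor for chemokines of the T cell zone (chromosome 11, 99035022 to 99045911, minus strand) was found in 93.8%, 89.6%, 90.4% and 87.9% of members. Il7r (chromosome 15, 9505874 to 9530262, minus strand), the interleukin 7 receptor chain on which naive cells depend, was found in 96.3%, 98.4%, 95.9% and 98.5%, against at most 1.73% of B cells.

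The genes of antigen experience were mostly low or absent, but not all of them. Cxcr3 had a UMI in 0%, 1.04%, 1.37% and 0% of members, where CD8 T cells with Ly6c2 or Ccl5 reached 25.2%, 27.6%, 40.9% and 33.6%. Eomes was found in 5.62%, 0.521%, 4.79% and 3.03% of members and Tbx21 in 1.25%, 0.521%, 4.11% and 0%. A count of 0 among the 160 and 66 members allows shares of cells with a UMI of up to 1.88% and 4.55% by the limit of 3 counts, which covers counting error only and does not bound the share of cells that express the gene. Cd44 was seen in 9.38%, 5.21%, 11% and 19.7% of members and in 8.78%, 4.65%, 10.3% and 12.8% of the strict set, against 48.7%, 39.9%, 54.4% and 56.0% of the CD8 T cells with Ly6c2 or Ccl5. Cd44 had a UMI in 46.3% to 79.7% of B cells, so its low share in members is below that of a class that expresses it.

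A few genes linked with cytotoxic or memory cells were common among the members. Nkg7, a protein of cytotoxic granules, was detected in 67.5%, 76.0%, 73.3% and 77.3% of them, and in 3.75% to 5.75% of CD4 T cells chosen by the same zeros. Klrd1, the CD94 chain of NK receptors, was detected in 72.5%, 67.2%, 54.8% and 53.0% of members and in 4.32% to 14.3% of those CD4 T cells. Il2rb was detected in 38.8%, 30.2%, 34.2% and 39.4% of members and in at most 1.59% of B cells. Tox, a factor of T cell development and exhaustion, was found in 60.0%, 40.1%, 45.9% and 39.4% of members.

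**Figure D1:**
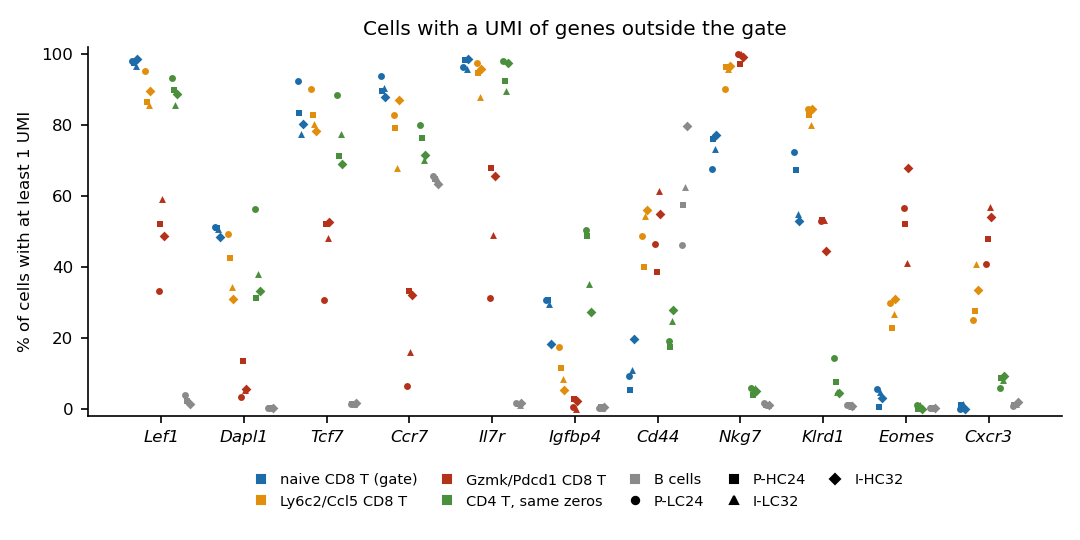
Percent of cells with at least 1 UMI of each gene (x axis) in the members, the comparison classes and B cells of the 4 libraries. Lef1 was above 96% in the members of every library, while Cxcr3 did not pass 1.37%.

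Members varied among themselves in how many of these genes they carried. Of the 4 naive genes Lef1, Tcf7, Ccr7 and Dapl1, at least 3 were detected in 92.5%, 85.4%, 80.8% and 80.3% of members, and all 4 in 46.9%, 39.1%, 35.6% and 39.4%. The CD8 T cells with Ly6c2 or Ccl5 had at least 3 of them in 81.5%, 71.4%, 61.8% and 69.8% of cells. All 4 were detected in 43.0%, 32.5%, 26.1% and 27.6% of that class. Of the 5 memory genes Cd44, Il2rb, Cxcr3, Eomes and Tbx21, at least 2 were detected in 10.0%, 1.56%, 9.59% and 10.6% of members, against 62.3%, 57.5%, 71.9% and 67.2% of the CD8 T cells with Ly6c2 or Ccl5 and 81.3% to 84.9% of those with Gzmk or Pdcd1. At least 3 naive genes with no memory gene were found in 51.2%, 55.7%, 43.8% and 42.4% of members, in 7.39% to 15.3% of CD8 T cells with Ly6c2 or Ccl5, and in 37.0% to 61.9% of the CD4 T cells. Most members thus carried at least 3 naive genes, as did most CD8 T cells with Ly6c2 or Ccl5. A small number of members carried 2 or more memory genes, fewest of them in P-HC24.

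Most cells just outside the gate had Lef1, as the members did. Cells kept out by a single Ly6c2 UMI numbered 28, 25, 16 and 6, and had Lef1 in 100%, 96%, 100% and 83.3% and Dapl1 in 82.1%, 72%, 81.3% and 50%. Cells with at least 2 Ly6c2 UMIs but no Ccl5, Gzmk or Pdcd1 numbered 47, 41, 34 and 11. They had Lef1 in 100% in every library, Dapl1 in 83.0%, 87.8%, 67.6% and 72.7%, and Cd44 in 21.3%, 14.6%, 17.6% and 45.5%. Among members Dapl1 was in 51.2%, 51%, 50.7% and 48.5% and Cd44 in 9.38%, 5.21%, 11% and 19.7%. The gate thus gives the share of cells that meet its zeros, and not of all CD8 T cells with naive genes. Cells kept out by a single Ccl5 UMI numbered 22, 21, 14 and 8, with Lef1 in 95.5%, 95.2%, 92.9% and 100%. Cells with Ly6c2 and Ccl5 together numbered 183, 183, 285 and 72 and still had Lef1 in 82.5% to 95.1%, but Cd44 in 65.0%, 52.5%, 62.1% and 68.1%. Just inside, the 8, 17, 18 and 18 members with a single Cd8 UMI had Lef1 in 75%, 88.2%, 83.3% and 94.4% and Cd44 in 12.5%, 5.88%, 11.1% and 33.3%. Between 10% and 11% mitochondrial UMIs, 2 cells of P-HC24 and none of the other libraries were otherwise like members.

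The members were fewest after the switch of diet in the arm that had eaten 1.25% cholesterol. Of kept barcodes P-LC24 had 3.11% members (2.65 to 3.62), P-HC24 2.78% (2.40 to 3.19), I-LC32 1.97% (1.66 to 2.31) and I-HC32 0.898% (0.695 to 1.14). The 2 libraries of week 24 overlapped in their counting intervals, and both libraries of week 32 were below them and apart from each other. In the strict set the shares were 2.88% (2.44 to 3.37), 2.49% (2.13 to 2.88), 1.58% (1.31 to 1.89) and 0.639% (0.470 to 0.849), in the same order and over the same kept barcodes. Pooled aspirates give no spread between mice for these shares, and what part of them comes from sampling of the tissue was not tested.

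Within the CD8 compartment the picture was different. Of all CD8 T cells (619, 575, 795 and 328), 25.8% (22.4 to 29.5) were members in P-LC24, 33.4% (29.5 to 37.4) in P-HC24, 18.4% (15.7 to 21.2) in I-LC32 and, for I-HC32, 20.1% (15.9 to 24.9). The share was thus highest in P-HC24, and the 2 libraries of week 32 overlapped. CD8 T cells with Gzmk or Pdcd1 were 25.4%, 13.0%, 30.6% and 44.5% of the compartment, lowest where members were highest, and those with Ly6c2 or Ccl5 without Gzmk and Pdcd1 were 48.8%, 53.6%, 51.1% and 35.4%. These shares add up to the whole, so they cannot vary independently of each other. In the strict set members were 23.9%, 29.9%, 14.7% and 14.3% of CD8 T cells. The denominator was all CD8 T cells, not filtered in the same way, so these shares could only fall. They fell most in I-HC32, where 19 of 66 members were left out, and nothing is read from its place below I-LC32. The gate asks for genes at 0, which shallow cells meet more easily. After each cell was thinned to 2000 UMIs, which left out 2 members of P-LC24 that were shallower, members were 36.1%, 43.0%, 23.6% and 27.3% of CD8 T cells, and the order of the libraries was kept.

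**Figure D2:**
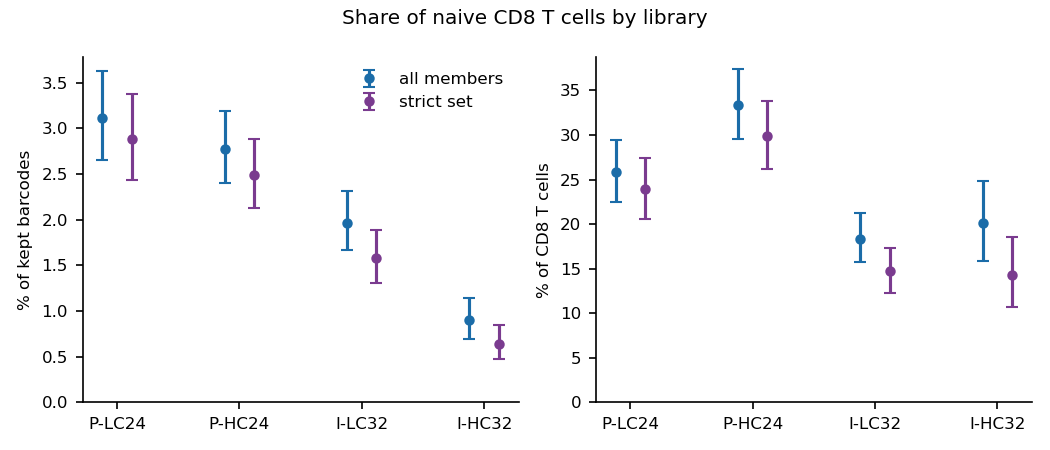
Members as percent of kept barcodes and of CD8 T cells in each library, with exact 95% intervals for counting error, for all members and for the strict set over the same denominators. I-HC32 had the lowest share of kept barcodes at 0.898%, and P-HC24 the highest share of CD8 T cells at 33.4%.

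Against the other T cells of the same library the members were compared gene by gene, as CPM of their summed UMIs, and a gene was counted where it differed at least 2-fold one way in all 4 libraries. The gate used these contrasts, so the counts are descriptions. Against CD8 T cells with Ly6c2 or Ccl5, 31 of 7146 genes were higher (0.434%) and 93 lower (1.3%). Against those with Gzmk or Pdcd1, 108 of 6857 were higher (1.58%) and 288 lower (4.2%). Against CD4 T cells by the same zeros, 30 of 6576 were higher (0.456%) and 32 lower (0.487%). Nothing is read from the order of these counts, since zeros of Ly6c2, Ccl5, Gzmk and Pdcd1 define the classes.

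Among the genes higher than in CD8 T cells with Ly6c2 or Ccl5 were receptors of several kinds. Ccr9, the chemokine receptor for the thymus and gut ligand Ccl25, stood at 73.0, 42.1, 48.0 and 39.9 CPM in members against 14.0, 5.67, 6.15 and 12.3. Trat1, an adaptor of the T cell receptor, stood at 46.3, 31.3, 21.8 and 50.7 against 5.34, 9, 6.42 and 8.51, and Igf1r, the receptor for insulin-like growth factor 1, at 184, 98.9, 115 and 125 against 58.8, 38.0, 42.0 and 47.3. Tgfbr3, which presents TGF-beta to its receptors, Gpr83 and the glutamate receptor subunit Gria3 were also among them. On the low side were NK receptor genes: Klra7 was at 0 in the members of all 4 libraries against 35.3 to 43.6 CPM, and Klrc1 (NKG2A) had at most 0.872 CPM against 53.1 to 91.0. Of 27 genes of the memory and effector list that could be compared, 12 were lower and their median log2 ratio was −1.49, and none of 27 naive and quiescence factors differed in either direction by the 2-fold rule, with a median of 0.15.

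The named genes against CD8 T cells with Gzmk or Pdcd1 included a transporter, enzymes and granzymes. Slc28a2b, a nucleoside transporter, stood at 96.9, 77.2, 83.7 and 77.9 CPM in members and at 0, 1.66, 0 and 1.02 in those cells. St6gal1, the enzyme that caps glycans with alpha-2,6 sialic acid, stood at 208, 174, 232 and 230 against 9.62, 16.6, 9.13 and 12.3, and the phosphatase gene Dusp10 at 334, 288, 240 and 497 against 44.2, 34.9, 31.7 and 59.2. The granzyme Gzmb was at 1.45 to 1.91 CPM in members and at 362, 168, 287 and 136 in the others, and Gzma was at 5.79, 2.55, 0 and 0 against 1396, 140, 461 and 72.5. Of the memory and effector list, 27 of 31 genes were lower (median −3.76), of the inhibitory receptor and exhaustion list 7 of 9 (median −2.24), and of the naive and quiescence factors 9 of 27 were higher (median 0.56).

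Against the CD4 T cells several genes that the gate had not named were higher in the members. Bend4 stood at 112, 69.5, 25.3 and 59.8 CPM against 1.25, 1.81, 0 and 1.84, and Fam241a at 504, 391, 346 and 446 against 52.4, 45.1, 41.3 and 42.3. Nkg7 stood at 241, 293, 312 and 308 against 17.5, 14.4, 45.0 and 20.2, and Klrd1 at 239, 188, 146 and 183 against 27.4, 10.8, 7.34 and 7.35. Lower in the members were the sialyltransferase gene St8sia6, at 7.23, 7.65, 16.6 and 23.6 against 222, 90.3, 170 and 152, and the transcription factor gene Maf, at 6.51, 4.47, 11.3 and 9.06 against 47.4, 57.8, 45.9 and 37.7. Ccr9, Gria3 and Syt6 were among the named higher genes in this comparison as well as in that with Ly6c2 or Ccl5.

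The receptor genes gave little evidence on clonality at this depth. UMIs of Trbv genes numbered 57, 35, 14 and 9, in 39, 29, 10 and 8 members, and covered 18, 17, 7 and 6 of 35 genes. The leading gene held 17.5% (8.75 to 29.9) of them in P-LC24 (Trbv2), 14.3% (4.81 to 30.3) in P-HC24 (Trbv12-2), 21.4% (4.66 to 50.8) in I-LC32 (Trbv1) and 33.3% (7.49 to 70.1) in I-HC32 (Trbv12-2). Trbc1 made up 33.7% (31.5 to 35.8), 34.7% (32.8 to 36.6), 36.9% (34.6 to 39.2) and 32.5% (29.2 to 36.0) of the UMIs of the constant genes Trbc1 and Trbc2 in the members. In CD8 T cells with Gzmk or Pdcd1 the same share was 26.7%, 38.2%, 33.3% and 40.5%, and Trbv13-1 held 32.9% (22.9 to 44.2) of their Trbv UMIs in P-LC24. The intervals of these Trbv and Trbc1 shares treat UMIs as independent, although 1 cell can give several UMIs of its receptor. They are too narrow as intervals over cells, and nothing is read from their overlap.

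High against low cholesterol in the Progression phase (Prog, P-HC24 over P-LC24) asks what the cholesterol dose did while disease advanced. Genes seen in 10% or more of either library's members, with 100 or more UMIs over the pair, were compared, and a gene was counted past 1.2-fold, the fold used by the study. Of 3601 genes compared, 573 were higher (15.9%) and 1628 lower (45.2%) in P-HC24, with a median log2 ratio of −0.21, and the interval lay above 0 for 417 and below 0 for 1207. The same median was −0.26 in B cells, and over the genes compared in the strict set it was −0.20 in CD8 T cells with Ly6c2 or Ccl5 and −0.18 in the CD4 T cells. With TMM scaling 991 were higher and 1012 lower, and relative to the median gene 1060 and 925, so the excess of lower genes depended on the scaling. In the strict set 492 of 3359 were higher (14.6%) and 1522 lower (45.3%), of which 453 and 1425 had been counted in all members. Each ratio below is therefore read beside −0.21 and beside the same ratio in the other cells.

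The genes ranked first among those higher in P-HC24 were Lyz2, Fn1, Apoe and Slpi. Lyz2, the lysozyme of myeloid cells, stood at 8.68 CPM in P-LC24 and 868 in P-HC24 (log2 6.64, strict 3.20, B cells 3.15), with 1242 of its 1361 UMIs in P-HC24 in 1 cell. Fn1, fibronectin, had 1 UMI in P-LC24 and 121 in P-HC24 (log2 6.74, 4.23 to 12.1, strict 4.08, B cells 2.99), of which 100 were in 1 cell. Apoe (1.78, B cells 0.68) and Slpi (1.75, B cells 5.44) followed, with 88 of 109 and 39 of 118 UMIs in 1 cell. In the strict set Slpi had 20 UMIs in P-LC24 (12.8% of cells) and 73 in P-HC24 (32.0%), and Apoe had 11 and 21 UMIs. Ctla2a, a cathepsin inhibitor, stood at 23.1 and 67.0 CPM (1.53, strict 1.02), with a B cell level of at most 2.09 CPM in these libraries.

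Further named genes that were higher in P-HC24 were also higher in B cells. Vim, the intermediate filament vimentin, stood at 166 CPM in P-LC24 and 431 in P-HC24 (log2 1.37, 1.15 to 1.59, against 1.01 in B cells), and at 0.93 in the strict set. Actg1, a cytoplasmic actin, went from 418 to 787 CPM (0.91, B cells 0.75), and the LIM protein gene Crip1 from 756 to 1419 (0.91, B cells 0.63). Rps6, a protein of the small ribosomal subunit, stood at 2078 and 3409 CPM (0.71, B cells 0.72). The list of cytosolic ribosomal proteins had 38 of 79 genes higher and 7 lower (median 0.25, B cells 0.31), nuclear oxidative phosphorylation 41 of 73 higher and 3 lower (0.30, B cells 0.28), and glycolysis 6 of 10 higher and 1 lower (0.30, strict 0.19, B cells 0.48).

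Among named genes lower in P-HC24 were Itga4, Ipcef1, Cd226, Tox and Cd46. Itga4, the alpha 4 integrin chain, stood at 414 CPM in P-LC24 and 208 in P-HC24 (log2 −0.99, −1.19 to −0.79), against −0.53 in B cells and −0.82 in CD8 T cells with Ly6c2 or Ccl5. Ipcef1 stood at 405 and 184 (−1.14, B cells −0.46), and Cd226, an activating receptor of T and NK cells, at 231 and 106 (−1.12). Its B cell ratio of −0.44 rests on 0.810 and 0.596 CPM. Tox (chromosome 4, 6686353 to 6991644, minus strand) stood at 264 and 105 (−1.33, −1.60 to −1.06), against −1.01 in CD8 T cells with Ly6c2 or Ccl5, −0.90 in CD4 T cells and −0.78 in B cells, where it had no more than 1.87 CPM. Cd46, a complement regulator, stood at 62.2 and 19.8 CPM (−1.65, −2.29 to −1.05, B cells −1.05). The ratios were near the same values in the strict set, with Itga4 at −1.07, Ipcef1 at −1.08, Cd226 at −1.11, Tox at −1.33 and Cd46 at −1.71. Whether the members differ from the other classes in these ratios was not tested.

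Most naive factors and most genes of receptor signalling were lower in P-HC24, in the members as in the other lymphocytes. Of 27 naive and quiescence factors 3 were higher and 17 lower, with a median of −0.48, against −0.32 in CD8 T cells with Ly6c2 or Ccl5, −0.42 in CD4 T cells and −0.50 in B cells. Lef1 stood at 1070 and 764 CPM (−0.49), Tcf7 at 414 and 268 (−0.63), Foxp1 at 1606 and 1112 (−0.53) and Txk, a Tec family kinase, at −0.90. Klf2, which drives S1pr1, stood at 980 and 1040 CPM (0.09). Of 30 genes of the T cell receptor complex and signalling, 3 were higher and 19 lower (median −0.39, B cells −0.30). Of 14 interferon-stimulated genes 2 were higher and 10 lower (−0.54, B cells −0.37).

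Homing and survival receptors were mixed. S1pr1, the receptor for egress from tissue, stood at 327 CPM in P-LC24 and 244 in P-HC24 (log2 −0.42, B cells −0.47), and Ccr7 at 422 and 474 (0.17, 0.01 to 0.33, B cells −0.33). Of 19 homing and trafficking receptors 3 were higher and 8 lower (median −0.20), and of 22 survival and cytokine receptor genes 4 were higher and 7 lower (−0.09). Ifngr1, the ligand-binding chain of the interferon gamma receptor, was higher, at 362 and 501 CPM (0.47, 0.31 to 0.64, B cells −0.02). Il7r was lower, at 1381 and 948 (−0.54, B cells −1.10), and so was Jak1, its kinase, at 685 and 455 (−0.59, B cells −0.38). The B cell ratio of Il7r rests on 3.79 and 1.76 CPM.

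The remaining lists of the Progression phase held few compared genes or moved with single cells. Memory and effector genes had 5 of 10 higher and 2 lower (median 0.09, and −0.01 in the strict set), and inhibitory receptor and exhaustion genes 3 of 6 higher and 2 lower (0.36), but 0 of 4 higher and 2 lower in the strict set (−0.35). Immediate early genes had 12 of 19 higher and 3 lower (0.32, strict 0.11, B cells −0.03). MHC class I presentation had 3 of 21 higher and 4 lower (−0.09, B cells 0.18), NF-kB genes 1 of 15 higher and 6 lower (−0.17), and glucocorticoid-responsive genes 1 of 7 higher and 4 lower (−0.36). Sterol synthesis and uptake genes, which report on cell cholesterol, were too scarce: 2 were compared and neither passed 1.2-fold, and of 5 liver X receptor targets 2 were higher and 3 lower. Heat shock chaperones had 1 of 11 higher and 1 lower, and of 6 cell cycle genes none passed 1.2-fold.

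**Figure D3:**
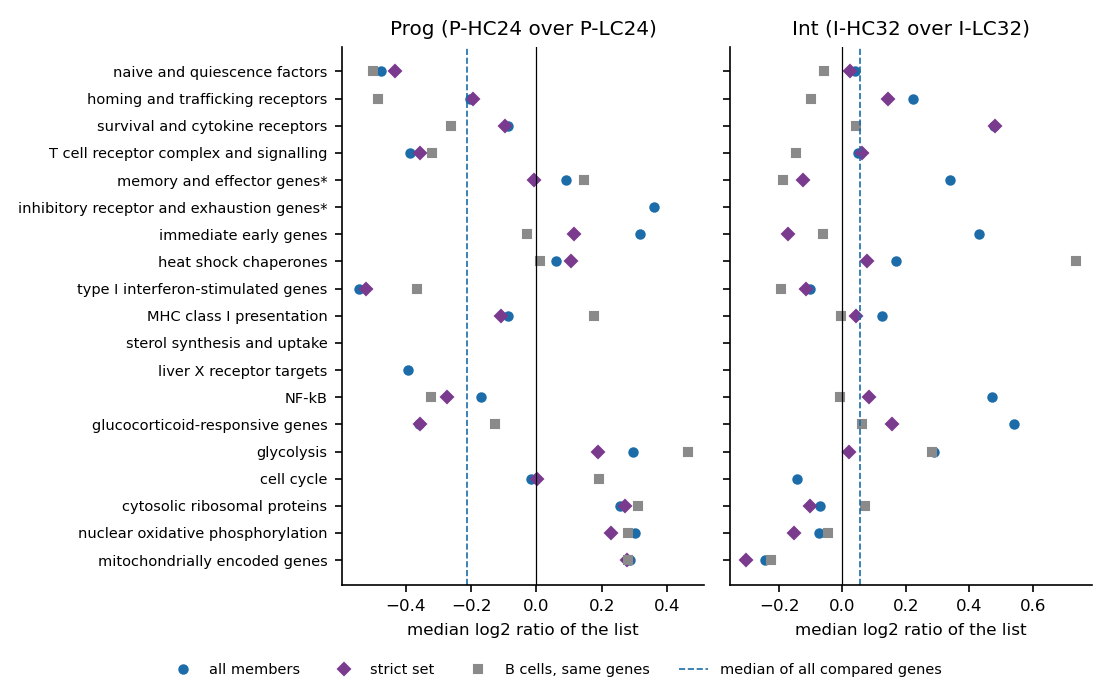
Median log2 ratio of each gene list with at least 5 compared genes (x axis) for Prog and Int in all members, in the strict set and in B cells over the genes of the strict set, with a dashed line at the median of all genes compared in the members and an asterisk on lists without the gate's genes. In Int the survival and cytokine receptor list lay at 0.48 in the members and at 0.04 in B cells, while in Prog the naive list lay at −0.48 in the members and at −0.50 in B cells.

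The Intervention phase comparison (Int, I-HC32 over I-LC32) asks what was left of the earlier dose after 8 weeks on the same diet. Of 2399 genes compared, 630 (26.3%) stood higher and 378 (15.8%) lower in the former, the median log2 ratio being 0.06 (0.00 in B cells), and the interval lay above 0 for 389 and below 0 for 191. In the strict set 417 of 1739 were higher (24%) and 311 lower (17.9%), with a median of 0.03, and 294 and 188 of these were the same genes that had been counted in all members. Over the genes compared in the strict set the median was 0.02 in CD8 T cells with Ly6c2 or Ccl5, 0.04 in CD4 T cells and −0.01 in B cells, so there was no common shift of the kind seen in Prog.

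Survival and cytokine receptor genes were higher in I-HC32 in all T cell classes compared. In the members 14 of 20 compared genes were higher and 1 lower (median 0.48), and in the strict set 11 of 15 were higher and 1 lower (0.48), 9 of them with an interval above 0. For the same 15 genes 12 were higher and 0 lower both in CD8 T cells with Ly6c2 or Ccl5 (0.36) and in CD4 T cells (0.51), against 5 higher and 2 lower in B cells (0.04). The difference between the classes was not tested.

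The interferon gamma receptor led the list. Ifngr1 (chromosome 10, 19467697 to 19485977, plus strand) stood at 367 CPM in I-LC32 against 759 in I-HC32, which was the highest of the 4 libraries, with a log2 ratio of 1.05 (0.85 to 1.25) in all members and 1.18 (0.96 to 1.41) in the strict set. It was 0.91 in CD8 T cells with Ly6c2 or Ccl5, 0.79 in CD4 T cells and 0.26 in B cells. Ifngr2, the signalling chain, stood at 120, 138, 50.6 and 149 CPM over the 4 libraries (strict ratio 1.37, 0.77 to 1.97), so that I-LC32 was the low library. Socs1, an inhibitor of cytokine signalling that interferon gamma induces, stood at 59.3, 75.3, 79.3 and 167 CPM (1.07, 0.64 to 1.51), with 0.36 in CD8 T cells with Ly6c2 or Ccl5, 1.08 in CD4 T cells and 0.04 in B cells.

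The genes of the interleukin 7 pathway and of survival followed. Il7r stood at 779 CPM in I-LC32 and 1245 in I-HC32 (log2 0.68, 0.53 to 0.82, strict 0.52). The ratio was 0.69 in CD8 T cells with Ly6c2 or Ccl5, 0.79 in CD4 T cells and 0.64 in B cells, where it rests on 1.52 and 2.36 CPM. Over time Il7r was lower at week 32 in the low-cholesterol arm (log2 −0.83) and higher in the high-cholesterol arm (0.39). Il2rg, the common gamma chain that pairs with it, stood at 219, 190, 156 and 237 CPM (Int 0.60, 0.27 to 0.94). Bcl2, the survival factor that interleukin 7 maintains, stood at 996, 1090, 1166 and 1490 (Int 0.35, 0.23 to 0.48, B cells −0.08), Mcl1 at 269, 266, 308 and 402 (0.39, 0.14 to 0.63), and the pro-apoptotic Bcl2l11 at 98.4, 87.4, 79.3 and 132 (0.74, 0.27 to 1.2). Bcl2 was thus highest in I-HC32 as its antagonist was, and Stat3 was the 1 gene of the list past 1.2-fold lower (−0.36), with −0.18 in the strict set, where Il21r was the 1 lower gene (−0.31, −0.85 to 0.21).

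Tgfbr2, the TGF-beta receptor chain that holds naive cells quiescent, stood at 332, 210, 245 and 397 CPM. It was lower in P-HC24 (log2 −0.66, B cells −0.59) and higher in I-HC32 (0.70, 0.43 to 0.96, strict 0.87, B cells −0.10). Tgfbr1 had too few UMIs to be compared, and Jak1 stood within 1.2-fold in Int (−0.11, −0.32 to 0.10).

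**Figure D4:**
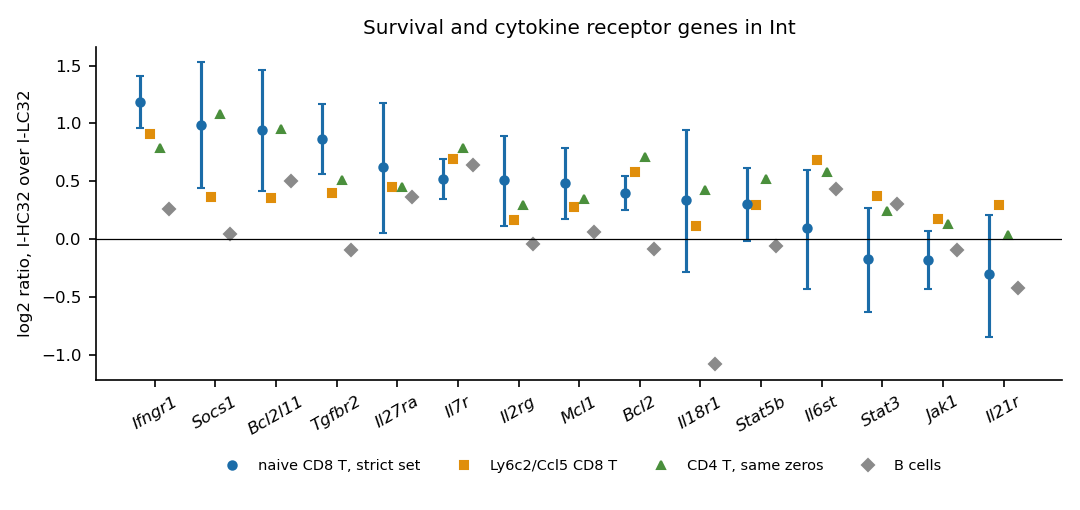
Log2 ratio of each survival and cytokine receptor gene in Int (I-HC32 over I-LC32) for the strict set with its 95% counting interval, beside CD8 T cells with Ly6c2 or Ccl5, CD4 T cells and B cells. Ifngr1 lay at 1.18 in the strict set and at 0.26 in B cells, and 11 of 15 genes lay past 1.2-fold higher in the strict set.

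Icos, Ctla4, Gpr183, P2ry10 and Ccr7 were past 1.2-fold higher in I-HC32, and whether they differ from the other classes was not tested. Icos, the inducible costimulator, stood at 164, 108, 75.0 and 201 CPM, low in I-LC32 and high in I-HC32 (log2 1.42, 1.00 to 1.85, strict 1.28). The ratio of Icos was 0.25 in CD8 T cells with Ly6c2 or Ccl5, 0.78 in CD4 T cells and −0.18 in B cells, which had no more than 0.568 CPM. Ctla4, the inhibitory counterpart of Cd28, stood at 67.3, 79.7, 49.7 and 111 CPM (1.15, strict 1.31), against 0.79, 0.18 and 0.23 in CD8 T cells with Ly6c2 or Ccl5, CD4 T cells and B cells. Gpr183, the oxysterol receptor that positions lymphocytes, stood at 227, 205, 121 and 232 CPM (0.94, 0.58 to 1.29, strict 1.03), against 0.18, 0.14 and −0.19 in the other classes in that order. P2ry10 stood at 175, 170, 95 and 219 CPM (1.21, strict 1.10), against 0.57, 0.44 and −0.04. Ccr7 stood at 422, 474, 371 and 511 (0.46, strict 0.60), against 0.40, 0.27 and −0.28. For Gpr183, P2ry10 and Icos it was I-LC32 that lay below the other libraries, rather than I-HC32 alone that lay above them.

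The homing and trafficking list had 8 of 17 genes higher and 0 lower in Int (median 0.22, strict 0.14, B cells −0.10). S1pr1 did not pass 1.2-fold, at 159 and 183 CPM (0.21, −0.16 to 0.56), and both values were below those of week 24, 327 and 244 CPM.

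The naive and quiescence factors had no common direction in Int, with 5 of 27 higher and 7 lower (median 0.04). Klf2 (chromosome 8, 73072726 to 73075502, plus strand) was the clearest among the higher ones, at 980, 1040, 1016 and 1850 CPM, where 3 libraries lay close together and I-HC32 above them (0.87, 0.74 to 0.99, strict 0.76), against 0.29 in CD8 T cells with Ly6c2 or Ccl5, 0.46 in CD4 T cells and 0.32 in B cells. Satb1, a chromatin organiser of T cells, stood at 856 and 1192 CPM (0.48, 0.33 to 0.62, B cells −0.43). Lef1 (997 and 931 CPM, −0.10) and Tcf7 (224 and 230, 0.04) stayed within 1.2-fold. Dapl1 stood at 269 and 199 CPM (−0.43, −0.76 to −0.12, strict −0.59) and Actn1, an actin crosslinker of naive cells, at 195 and 131 (−0.58).

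Tox was again lower in the arm that had eaten 1.25% cholesterol, at 168 CPM in I-LC32 and 92.4 in I-HC32 (log2 −0.86, −1.34 to −0.41, strict −1.16). The ratio was −1.21 in CD8 T cells with Ly6c2 or Ccl5, 0.01 in CD4 T cells and −0.53 in B cells, which had no more than 1.42 CPM of it. Chka, a choline kinase of phospholipid synthesis, stood at 52.8, 44.0, 155 and 48.9 CPM, high in I-LC32 alone (Int −1.67, strict −1.88, B cells −0.35). Icam1, an adhesion ligand, stood at 37.6, 32.5, 80.2 and 16.3 CPM (−2.30, −3.47 to −1.31, strict −2.18, B cells −0.31). Cd52, a small surface glycoprotein of lymphocytes, stood at 942, 835, 723 and 455 CPM, lowest in I-HC32 (−0.67, −0.88 to −0.46), and was at −0.89 in CD8 T cells with Ly6c2 or Ccl5, −0.96 in CD4 T cells and −0.67 in B cells.

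A pair of genes of lipid and vesicle biology were higher in I-HC32, with negative ratios in B cells. Elovl6, which elongates palmitate, stood at 58.6, 70.2, 61.9 and 158 CPM (log2 1.35, 0.88 to 1.82, strict 1.28), against 0.83 in CD8 T cells with Ly6c2 or Ccl5, 1.06 in CD4 T cells and −0.61 in B cells. The B cell ratio of Elovl6 rests on 3.98 and 2.60 CPM, too low a level to set beside the members. Lyst, a regulator of lysosome traffic, stood at 211, 181, 221 and 371 CPM (0.75, strict 0.95, B cells −0.10). Vim was once more higher, at 761 CPM in I-HC32 (1.23, strict 1.21), as it was in B cells (1.02). In T cell receptor signalling 8 of 25 genes were higher and 2 lower (median 0.05), among them Ptprc (CD45), at 874 and 1163 (0.41, strict 0.47, with 0.01 in CD8 T cells with Ly6c2 or Ccl5).

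**Figure D5:**
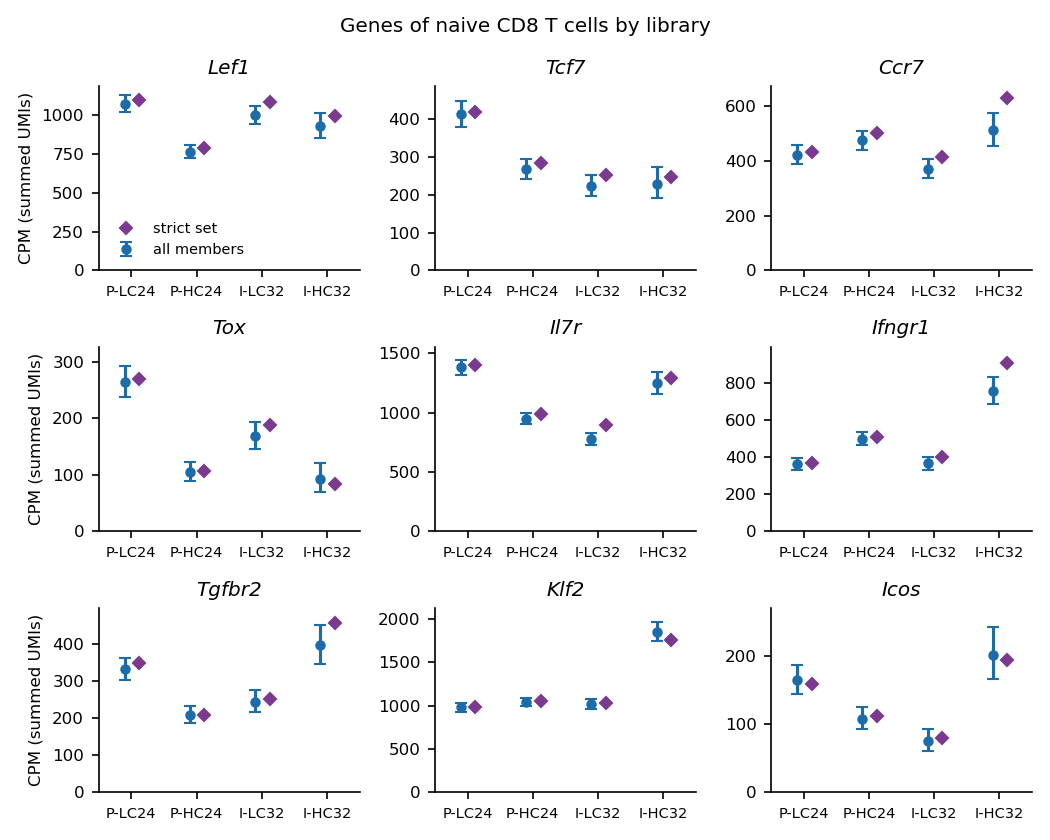
CPM of named genes in the members of the 4 libraries, for all members with exact 95% counting intervals and for the strict set. Klf2 and Ifngr1 were highest in I-HC32 at 1850 and 759 CPM, Tox was highest in P-LC24 at 264 CPM, and Icos was lowest in I-LC32 at 75.0 CPM.

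Several of the largest ratios in Int rested on a few cells. Slpi, a protease inhibitor of myeloid cells, stood at 22.4, 75.3, 83.7 and 2149 CPM (log2 4.68), and 1132 of its 1186 UMIs in I-HC32 were in 1 cell. In the strict set its ratio was still 1.57, against 1.71 in B cells. There it had a UMI in 10.3% of strict cells of I-LC32 and 40.4% of those of I-HC32. Lyz2 had 1932 of its 2015 UMIs in I-HC32 in 3 cells and 64 UMIs in the strict cells of that library. Ern1 had 94 of 103 UMIs in 3 cells and went from 3.16 in all members to −0.16 in the strict set, and Jak2 went from 2.03 to −0.074. Without the 25 members alone these stood at 3.16 and 1.84. Alox15 had 103 of 107 UMIs and Apoe 201 of 213 in 3 cells of I-HC32. In the other direction Cd74, the invariant chain of MHC class II, was at −2.91 with 901 of its 952 UMIs in I-LC32 in 3 cells, and it was at 1.18 in the strict set. H2-Ab1 went likewise from −3.02 to 1.39 and H2-Aa from −2.81 to 1.36. In I-LC32, 3 of the members with markers of other cell types held several lineages at once and had 34500, 23671 and 19439 UMIs.

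Several lists had other medians in the strict set, which leaves out 19 of the 66 members of I-HC32. Immediate early genes had 16 of 21 higher and 2 lower in Int (median 0.43), but 1 of 15 higher and 6 lower in the strict set (−0.17), with Fos at 0.38 and −0.37 and Nfkbia at 0.65 and −0.093. Memory and effector genes went from 6 of 10 higher (0.34) to 1 of 5 higher and 1 lower (−0.12). NF-kB genes went from 9 of 14 higher and 2 lower (0.47) to 4 of 12 and 3 (0.08), glucocorticoid-responsive genes from 4 of 6 and 0 (0.54) to 2 of 5 and 1 (0.16), and glycolysis from 4 of 8 higher (median 0.29) to a median of 0.02. Of 3 liver X receptor targets 2 were higher (1.04), and the single gene left in the strict set was at −0.087. Inhibitory receptor and exhaustion genes had 2 of 4 higher and 2 lower (0.41), and 1 of 2 higher and 1 lower in the strict set (0.072). Without the 25 members alone the medians were 0.18 for immediate early genes, 0.16 for memory and effector genes, 0.38 for NF-kB genes, 0.026 for glucocorticoid-responsive genes, 0.18 for glycolysis and 0.29 for liver X receptor targets. Beyond these 25, the strict set leaves out only members with a single Cd8 UMI. Immediate early genes, memory and effector genes and liver X receptor targets changed sign at that step, and glucocorticoid-responsive genes had moved before it. These lists also held fewer compared genes in the strict set than in all members. The cause of the changes was not tested.

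The lists that follow had medians between −0.24 and 0.17 in Int, where the median of all genes was 0.06. Interferon-stimulated genes had 3 of 12 higher and 4 lower (−0.10), MHC class I presentation 4 of 19 and 1 (0.13), and cell cycle genes 1 of 5 and 1 (−0.14). Heat shock chaperones had 3 of 9 higher and 0 lower (0.17), against 0.73 in B cells. Ribosomal proteins had 3 of 79 higher and 9 lower (−0.07), nuclear oxidative phosphorylation 5 of 66 and 14 (−0.07, strict −0.15), and mitochondrially encoded genes 0 of 11 and 4 (−0.24, strict −0.30 with 6 lower, B cells −0.22), where Prog had shown 7 of 13 higher and 4 lower (0.29).

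The same mice were also set against themselves over time. The median log2 ratio of week 32 over week 24 was −0.03 in the low-cholesterol arm (−0.05 in B cells) and 0.23 in the high-cholesterol arm (0.17 in B cells). These ratios share their libraries with Prog and Int. S1pr1 was lower at week 32 in both arms (−1.04 and −0.42), as was Tcf7 (−0.89 and −0.22). Ifngr1 stood at 0.02 in the low-cholesterol and 0.60 in the high-cholesterol arm, Klf2 at 0.05 and 0.83, and Tgfbr2 at −0.44 and 0.92. Icos and Gpr183 were lower at week 32 in the low-cholesterol arm (−1.13 and −0.91) and stood at 0.90 and 0.18 in the other.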

How the data were processed

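The 4 10x 3' libraries of mouse liver non-parenchymal cells were used. The authors deposited filtered matrices of raw UMI counts, made per the labels with Cell Ranger 9.0.1 against GRCm39, and the submitters' processing notes also name Seurat 5.3. Kept libraries held 41238539 to 86280132 UMIs.

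Members were chosen by the gate given above, and their UMIs were added up within a library and expressed as CPM. The members and gene lists were chosen with earlier results of these data known. Log2 ratios carry exact conditional binomial intervals and shares carry Clopper-Pearson intervals. A share of 0 is given with the limit that 3 counts allow. No doublet caller was part of the gate; Scrublet served as an alternative. The genes named were, per diet comparison, the 12 highest and 12 lowest by the interval bound nearest 0, per class comparison the 10 on each side by smallest fold (genes with at least 20 UMIs in every library), and of each list the member with the highest mean CPM and the one with the largest ratio. Immunoglobulin, receptor V, D and J, haemoglobin, mitochondrial, predicted and gate genes were left out of that rule, and some results are not reported here. All list members could be named, and those given with values beside it, as well as genes with opposite Prog and Int, were chosen after their values were seen. The ratio scripts were tested on simulated data. Alternatives covered cell limits, gate, doublets, scaling, filters and fold, and 2 (members of other lineages left out, and the strict set) were added after the data were seen. Positions are from the GENCODE annotation of GRCm39. Scripts ran in Python 3.11.15 with scanpy 1.11.5 (Scrublet), scipy 1.17.1 (intervals), numpy 2.4.6, matplotlib 3.10.9 and pandas 2.3.3, and edgeR 4.0.16 in R 4.3.3 gave the TMM factors.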

Additional observations from a re-analysis of the deposited data

Results flagged for a closer look

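Of 68 named genes that could be compared in Prog and in Int, in all members and in the strict set, 12 lay past 1.2-fold in opposite directions with intervals that left out 0, also relative to the median gene. The 68 had been named for their ratios in Prog or Int or their level in a list. The same count over all compared genes was not made, so 12 of 68 has no background share beside it. The difference between the comparisons was not tested, and the libraries of Prog and Int differ in age as well as in diet. Of the 12 genes, 7 stood lower in Prog but higher in Int. Icos had the widest gap, with Int minus Prog at 2.03 on the log2 scale (Prog −0.61, Int 1.42). Txk followed at 1.32 (−0.90 and 0.42), then Hsp90b1, a chaperone of the endoplasmic reticulum, at 1.31 (−0.53 and 0.78), and Ssh2, a cofilin phosphatase, at 1.27 (−0.69 and 0.58). Il7r had a gap of 1.22 (−0.54 and 0.68), Arhgap15 of 1.00 (−0.56 and 0.44) and the antiproliferative gene Btg1 of 0.95 (−0.55 and 0.41). Some of these swings were also present in B cells. There the ratios in Prog and Int were −0.61 and 0.51 for Arhgap15 and −0.22 and 0.85 for Hsp90b1, but −0.79 and −0.22 for Btg1. Whether any gap is particular to the members was not tested.

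The other 5 ran the opposite way, positive in Prog and negative in Int. The mitochondrially encoded mt-Atp6 had a gap of −0.68 (Prog 0.37, Int −0.32) and mt-Co3 of −0.83 (0.53 and −0.30). The interferon-inducible Ifi27l2a had a gap of −1.14 (0.54 and −0.61), the stress gene Gadd45b of −1.47 (0.64 and −0.83) and Plac8 of −1.68 (0.85 and −0.82). In the strict set the gaps were 1.78 for Icos, 1.03 for Il7r, −2.44 for Gadd45b and −1.80 for Plac8.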

How the results depend on the processing

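Of the settings tried, 16 with the 2 chosen after the data were seen, most left the values within their limits. These were the counting interval for a ratio and 1.2-fold for a list median. Within them stayed 1279 log2 ratios of named genes and 532 list medians, while 128 and 14 moved and 17 and 8 changed sign. A change of sign was counted only where the reported value was at least 1.2-fold, so smaller values could change sign and still count as within the limits. Genes higher in Int (630) numbered 193 at 1.5-fold, 2473 with at least 20 UMIs and no limit on cells, 145 with at least 300 UMIs and 417 in the strict set, and those lower (378) 86, 589 with TMM, 1703 and 79. Genes higher in Prog (573) numbered 117 at 1.5-fold, 991 with TMM, 1642 and 231 with the 20 and 300 UMI limits, 1060 relative to the median and 908 without ribosomal and mitochondrial genes in the scaling. Those lower (1628) numbered 630, 1012, 3740 and 562, and 925 relative to the median. The median ratio moved to −0.062 in Int with TMM and, in Prog, to −0.025 with TMM and −0.062 without ribosomal and mitochondrial genes. Members of CD8 T cells became 34.9%, 41.6% and 22.6% in P-LC24, P-HC24 and I-LC32 with 1 UMI of Ly6c2 and Ccl5 allowed, 36.1%, 43.0%, 23.6% and 27.3% after thinning, and 14.7% and 14.3% at week 32 in the strict set. Of kept barcodes they became 4.20%, 3.46% and 2.43% with 1 UMI allowed, 3.55% in P-HC24 and 2.95% in I-LC32 with 5% mitochondrial UMIs, and 1.58% and 0.639% at week 32 in the strict set. List medians changed sign in the strict set in Int for immediate early genes (−0.17), liver X receptor targets (−0.087) and memory and effector genes (−0.12). For inhibitory receptor and exhaustion genes they did so in Int without Scrublet calls (−0.30) and with 20 UMIs (−0.33), and in Prog with 300 UMIs (−1.33), 5% mitochondrial UMIs (−0.20) and the strict set (−0.35). Single ratios in Int changed sign without Scrublet calls for Alox15 (−1.99), Apoe (−1.86), Cebpb (−1.09) and Slpi (−0.080). In the strict set and, where 2 values are given, without members of other lineages they did so for Cd74 (1.18 and 1.00), H2-Aa (1.36 and 1.17), H2-Ab1 (1.39 and 1.17), H2-Eb1 (0.18 and 0.030), Cebpb (−0.074), Ern1 (−0.16), Jak2 (−0.074), Nfkbia (−0.093) and S100a6 (−0.72). For Cd74, H2-Aa, H2-Ab1 and H2-Eb1 leaving out the members of other lineages was enough. Cebpb (0.004 at that step), Ern1, Jak2, Nfkbia and S100a6 changed sign only when members with a single Cd8 UMI were also left out. The cause of these and the other shifts was not tested. No replicate could be left out and no paired analysis was possible because each condition had 1 library. The 66 members of I-HC32 set the depth limit of Int.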
